A study of Homo sapiens and Mus musculus with 5 samples.

Results

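PC-12 is a cell line from a rat pheochromocytoma, a tumour of adrenal chromaffin cells, and here it carried a plasmid library of human DNA fragments with SNP alleles linked to schizophrenia. Every allele with a mean count of 10 or more over the PC-12 RNA libraries and the plasmid input libraries was taken, which kept all 1614 alleles present in the PC-12 table, of 6208 entries over the 4 lines of the series. They came from 347 SNPs, 327 named by chromosome and position and 20 by rs number, in 979 fragments. For 635 fragments both alleles were present, and for 344 a single allele. A fragment had 50, 100 or 150 bases in front of its SNP and 150, 100 or 50 behind it, so fragments of a SNP overlap and are not independent of each other.

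The PC-12 cells received no treatment beyond transfection that the labels name, and were set against the plasmid pool itself, sequenced before it entered the cells as 3 input libraries that the other lines (HEK-293T, SH-SY5Y and Neuro-2a) share. The PC-12 RNA libraries are those numbered 1 and 3, and the PC-12 counts hold no library numbered 2. The organism label of the PC-12 sample reads mouse, whereas PC-12 is known as a rat line. Since the assay counts reporter fragments only, no marker gene could be set against either name.

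In STARR-seq the tested DNA is cloned into the transcribed part of a reporter, so a fragment that acts as an enhancer raises the amount of its own sequence in the polyadenylated RNA. RNA over plasmid input then measures activity, and a SNP allele that makes or breaks a binding site can shift it. PC-12 cells make and store catecholamines, hold chromaffin granules and extend neurites in response to nerve growth factor, and are widely used as a neuroendocrine model. The sequences of the fragments and the bases of the alleles were not used here, and alleles are numbered 1 and 2 as the table has them. Positions are given as the table states them, without a stated genome build. Gene names were looked up in RefSeq's list of protein-coding genes on GRCh38.p14 and hold only if the positions are of that build. In that list, 220 of the SNPs lay inside a gene. A gene name marks the place of a fragment, and no gene was shown to be its target.

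The PC-12 RNA libraries differed from each other far more than the input libraries did, so the log2 ratio of each library is given beside the fitted value, library 1 first. Library 1 held 7969955 counts and library 3 held 7503691, against 6575086 to 8421333 in the input, and an allele had a median of 3452.83 input counts. These reads were amplified by PCR without molecular identifiers, so counting error is only part of their error. Log2 counts of the RNA pair correlated at r = 0.67 across the 1431 alleles with no RNA count of 0, as a description over alleles from a shared plasmid pool. The input pairs correlated at 0.985 to 0.994. Library 1 had 24 alleles at 0 (1.49%) and library 3 had 159 (9.85%). The alleles at 0 in library 3 were all counted in the other library, from 4 to 65399 counts with a median of 656. In the input their median was 1151.33, below the lower quartile of 1575.08 over all alleles. They were thus mostly of low input, though not absent from it. The cause of these counts of 0 was not tested.

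The split between the libraries set number 1 apart from numbers 2 and 3 rather than PC-12 from the other lines. Over 1045 alleles above 0 in every RNA library of the 4 lines, the log2 level in PC-12 library 1 correlated at 0.82 to 0.90 with library 1 of the other lines, and at 0.60 with PC-12 library 3. PC-12 library 3 in turn correlated at 0.59 to 0.80 with libraries 2 and 3 of the other lines and at 0.49 to 0.55 with their library 1. PC-12 library 1 was thus nearer to the first library of every other line than to the other PC-12 library. The protocols call the libraries biological replicates and name no batch, so what a number stands for is unknown. In tests against the input, p-values measure a spread pooled over RNA and input libraries, of which the input libraries were much closer to each other. In tests against other lines they measure the spread between RNA libraries within lines.

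Activity was first described in each library alone, as the log2 ratio of RNA to the mean input after scaling, with 1 count added. Medians, quartiles and SDs over the whole library leave out alleles with a count of 0 in that library. On that basis the middle of each library was near 0 after scaling, with a median of -0.02 in both. With alleles at 0 kept, the library 3 medians were -0.25, -0.11 and -0.25 with 50, 100 and 150 bases in front. The quartiles were -0.50 and 0.46 in library 1 and -0.82 and 0.96 in library 3, so library 3 was the wider. Its SD was 1.72, against 1.19 in library 1. With alleles at 0 included, library 1 had 143 alleles over 2-fold above the input and 214 over 2-fold below it, and library 3 had 341 and 463. Both libraries together placed 83 alleles over 2-fold above (5.14% of all alleles) and 135 over 2-fold below (8.36%), while 45 lay over 2-fold in opposite directions. At 4-fold, 16 alleles were above in both (0.991%) and 58 below (3.59%).

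How closely the libraries matched varied with how common an allele was in the input. Across the 1431 alleles the log2 ratios correlated at r = 0.52, partly because both use the same input mean. With library 1 set against input library 1 and library 3 against input library 3, r was 0.41. The ratios differed by a median of 0.75 log2 units and by over 1 unit for 533 alleles (37.2%), of which 238 were higher in library 1 and 295 in library 3. Among the 404 alleles with the lowest input the median difference was 1.30, and it was 0.55 among the 404 with the highest input. Of the 159 alleles at 0 in library 3, 100 were among those 404 of lowest input.

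Some alleles gave opposite pictures in the libraries, and the following were picked after their values were seen, for the size of the gap. Allele 1 of the SNP at chromosome 3 position 31997390, with 50 bases in front, had 107, 73 and 73 input counts, 71 counts in RNA library 1 and 10534 in RNA library 3. Its log2 ratios were -0.14 and 7.22. Allele 1 at chromosome 12 position 57289173 in R3HDM2, with 150 bases in front, had 955 counts in library 1 and 2 in library 3, for ratios of -1.45 and -9.60. Neither allele passed the test below, at adjusted p of 0.131 and 0.472 by edgeR with Benjamini-Hochberg adjustment. Before adjustment the allele on chromosome 3 had an edgeR p of 0.0353 and that in R3HDM2 had 0.303.

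Which alleles were more or less abundant in PC-12 RNA than in the plasmid was tested with edgeR's quasi-likelihood test and Benjamini-Hochberg adjustment over all 1614 alleles, at an adjusted p of 0.05. The test called 168 alleles (10.4%), 91 above the input (5.64%) and 77 below (4.77%). The alleles above came from 57 SNPs and 74 fragments, with a median log2 ratio of 1.24, and those below from 62 SNPs and 69 fragments, with a median of -1.44, against -0.01 over all alleles. All 168 had the same sign in both RNA libraries and none had a count of 0 in either. Of those above, 52 were over 2-fold in each library, and of those below, 53. Another 132 alleles had fitted ratios beyond 4-fold and did not pass.

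The number of calls depended on which libraries entered. The fit takes a single spread for RNA and input, and with any of the 3 input libraries left out it called 0 alleles, with 241 to 244 at an unadjusted p under 0.05 against 507 in the full fit. With RNA library 3 alone it called 1454, and with library 1 alone 1257, because the spread then came from the input only. Calls were also more frequent where the input was high: 22.5% of the 404 alleles with the highest input were called and 2.97% of the 404 with the lowest.

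Calls were spread over the placements. With 50 bases in front 29 of 519 alleles were called above and 31 below, with 100 bases 32 and 26 of 553, and with 150 bases 30 and 20 of 542. Allele 1 and allele 2 also had like counts, with 44 of 782 and 47 of 832 above. Inside genes 58 of 1013 alleles were above and 53 below, and between genes 28 of 507 were above and 23 below.

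The highest allele past the threshold lay in the protocadherin gamma cluster, whose overlapping genes encode adhesion proteins of the neuronal surface. It was allele 1 at chromosome 5 position 141474289 with 150 bases in front, and it was rare in the plasmid, with 74, 57 and 74 input counts. RNA library 1 held 3848 of its reads and library 3 held 2307, for log2 ratios of 5.89 and 5.32, both far above the input. By limma-voom this allele did not pass, at an adjusted p of 0.089. The other alleles of this SNP did not pass. Allele 1 had library ratios of -0.01 and 0.12 with 100 bases in front. With 50 bases in front it stood at -0.53 ± 0.24 (SE of the fit, 2 RNA libraries), from -0.22 and -0.92. This SE pools the spread of RNA and input libraries, and the RNA pair differed more than the input pairs. Allele 2 with 150 bases in front had 0 counts in library 1 and 2461 in library 3.

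Next came PPP2R3A, which encodes a regulatory B-type subunit of protein phosphatase 2A, with alleles at chromosome 3 position 136050568. Allele 2 with 100 bases in front had 10696, 9746 and 12038 input counts and 48611 and 100754 RNA counts, the last being the largest count in library 3 at 1.34% of its total. Its library ratios were 2.26 and 3.47. Allele 2 with 150 bases in front stood at 2.60 ± 0.13 (SE of the fit, 2 RNA libraries), with 2.42 and 2.75 in the libraries. Its adjusted p was 0.00477 by edgeR with Benjamini-Hochberg adjustment. The libraries were closer for the fragment with 150 bases in front than for that with 100.

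A SNP inside LETM2, whose product is related to a mitochondrial membrane protein, at chromosome 8 position 38401963, was high with 150 bases in front, allele 2 at 2.64 ± 0.33 (2.03 and 3.07 in the libraries) and allele 1 at 2.03 ± 0.18 (2.05 and 2.00). With 100 bases in front, allele 2 stood at 2.18 ± 0.16 (2.34 and 2.00). With 50 bases in front, allele 2 had library ratios of -0.10 and 0.10 and did not pass. All 3 called alleles of this SNP thus had the longer fronts.

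A SNP at chromosome 3 position 31997390, inside both OSBPL10, an oxysterol-binding protein gene, and the zinc finger gene ZNF860, had allele 1 at 2.35 ± 0.15 with 150 bases in front (2.55 and 2.12 in the libraries). Its input counts were 8735, 7237 and 9136 and its RNA counts 45871 and 30446. Allele 2 of that fragment stood at 2.00 ± 0.29 (2.28 and 1.66) and allele 2 with 50 bases in front at 1.40 ± 0.08 (1.44 and 1.36), and both passed. This is the SNP whose other allele with 50 bases in front differed between the libraries by over 7 log2 units, so agreement between libraries held for some of its fragments and not for others.

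Another 5 of the 12 highest lay between 2.13 and 2.28. They were allele 1 with 50 bases in front in ALG12, a mannosyltransferase gene of N-glycan assembly (2.28 ± 0.42, with 1.49 and 2.79 in the libraries), and, with 150 bases in front, allele 1 in PPP1R26, a regulator of protein phosphatase 1 (2.22 ± 0.27, with 2.51 and 1.85). The others also had 150 bases in front. Allele 1 nearest to the angiotensin-converting enzyme gene ACE stood at 2.18 ± 0.34 (1.63 and 2.59). Allele 1 nearest to the sorting nexin gene SNX19 stood at 2.16 ± 0.17 (1.89 and 2.39), and allele 2 nearest to MFAP4, a gene of the extracellular matrix, at 2.13 ± 0.19 (1.81 and 2.39). All 12 of the highest alleles were above the input in both libraries, as the rule for naming them required. Their adjusted p ranged from 0.00477 to 0.0479 by edgeR with Benjamini-Hochberg adjustment.

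The lowest alleles came from few SNPs. The SNP in MANBA, which encodes the lysosomal enzyme beta-mannosidase, at chromosome 4 position 102730805, gave 3 of the 12. Allele 1 with 150 bases in front fell from 10592, 9002 and 11447 input counts to 64 and 21 RNA counts, for ratios of -7.22 and -8.62. With 100 bases in front, allele 1 had 210 and 771 RNA counts and allele 2 had 260 and 681. The ratios were -6.40 and -4.37 in allele 1 and -5.49 and -3.94 in allele 2. Allele 2 was fitted at -4.52 ± 0.60 (SE of the fit, 2 RNA libraries). With 50 bases in front neither allele passed. Allele 1 had 4655 and 10543 RNA counts and ratios of opposite sign, -0.16 and 1.18, and allele 2 stood at -2.47 ± 0.53 (-1.90 and -3.43).

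PLCL1, which encodes a phospholipase C-like protein without catalytic activity, also gave 3 of the 12, at chromosome 2 position 198058744. With 100 bases in front, allele 2 had 7979, 6827 and 10205 input counts and 255 and 358 RNA counts, and allele 1 had 6314, 5474 and 8428 input counts and 324 and 330 RNA counts. Their fitted ratios were -4.57 ± 0.30 (-4.92 and -4.27) and -4.18 ± 0.20 (-4.27 and -4.08). Allele 1 with 50 bases in front stood at -3.96 ± 0.21 (-3.76 and -4.20). With 150 bases in front neither allele passed and the libraries had opposite signs, at -0.64 and 2.17 for allele 1 and -0.26 and 0.78 for allele 2.

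MAU2, the gene of a subunit of the cohesin loader, gave both alleles of a fragment with 150 bases in front at chromosome 19 position 19329257. Allele 1 stood at -3.82 ± 0.49, with 922 and 338 RNA counts, and allele 2 at -3.90 ± 0.37, with 122 and 196. The libraries differed in which of these alleles was lower: library 1 gave -3.32 for allele 1 and -4.38 for allele 2, and library 3 gave -4.60 and -3.53.

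The other 4 of the lowest 12 were single alleles. Allele 1 at chromosome 5 position 152943676, near the neuropeptide receptor gene NMUR2 and with 50 bases in front, had 373 and 286 RNA counts against 9601, 7598 and 9774 in the input, so its libraries were nearly equal at -4.49 and -4.71. In the DNA damage response gene TP53BP1, allele 2 with 50 bases in front stood at -4.35 ± 0.19 (-4.52 and -4.19), with 360 and 404 RNA counts. Allele 1 at chromosome 11 position 130848735, nearest to SNX19 and with 150 bases in front, had 538 and 300 RNA counts against 9363, 7861 and 9996, at -4.28 ± 0.29 (-3.98 and -4.66). Allele 2 nearest to the ubiquitin-conjugating enzyme gene UBE2E2, with 100 bases in front, had 311 and 371 RNA counts against 5543, 4592 and 5821, at -3.78 ± 0.21. Every one of the 12 lowest was over 8-fold below the input in both RNA libraries, with input means of at least 2724 counts.

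Alleles of a fragment moved together where both were called. In 25 fragments both alleles passed, 17 with both above and 8 with both below, and in none did the called alleles have opposite signs. In another 87 fragments 1 allele passed, and the other had the same sign in 71. Over the 510 fragments with no RNA count of 0, the activities of the alleles correlated at r = 0.67 in library 1 and at 0.21 in library 3, given as a description across fragments that share an input pool. In FURIN, the gene of a proprotein convertase, at chromosome 15 position 90883330, both alleles passed with 50 bases in front, at 1.79 ± 0.07 (1.73 and 1.86) and 1.38 ± 0.10 (1.37 and 1.40). They also passed with 150 bases in front, at 1.28 ± 0.13 (1.25 and 1.31) and 1.41 ± 0.10 (1.42 and 1.40), the libraries lying close together.

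Genes of the lists taken from schizophrenia genetics and PC-12 biology were few among the SNPs, and the lists were chosen with earlier results in view. No SNP lay inside a nicotinic receptor gene, a catecholamine or chromaffin granule gene, an HLA gene or a gene of growth factor signalling. Within 10 kb of genes of growth factor signalling there were 2 SNPs with 8 alleles, of which 3 were above the input and 0 below. These 3 are the LETM2 alleles described above and are not a further result. In voltage-gated calcium channel genes 2 SNPs gave 9 alleles, none called, with a median of -0.37 against -0.01 over all alleles.

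In glutamate receptor genes 4 SNPs gave 19 alleles, of which 0 were above and 3 below, with a median of -0.62. GRM3, a metabotropic receptor gene, had allele 2 with 50 bases in front at -0.85 ± 0.12, from 11614, 8838 and 12027 input counts to 5995 and 4665 RNA counts. Both libraries were below the input, at -0.75 and -0.95.

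Among transcription factor and chromatin genes 10 SNPs gave 48 alleles, with 4 above, 5 below and a median of -0.22. Besides the 3 alleles in ZNF860 above, allele 2 in ZSCAN2 with 50 bases in front was above at 0.75 ± 0.14 (0.53 and 0.94). TCF4, a helix-loop-helix transcription factor gene, had allele 1 with 50 bases in front at -3.23 ± 0.17 (-3.05 and -3.44), with 1752 and 1194 RNA counts against 15963, 13412 and 16932. ZNF664 had 3 alleles below, fitted between -1.21 and -1.44 with library ratios of -0.93 to -1.54, and ZNF823 had 1, with -1.04 and -0.96 in the libraries. The counts in these lists stand beside 10.4% of all alleles called and were not tested against it.

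Activity differed between fragments that placed the same SNP differently, for some SNPs. Such fragments also hold different sequence around the SNP, so placement and sequence cannot be told apart. The same allele was compared between fragments in 1272 pairs from 328 SNPs, as the difference of RNA over input, and edgeR with Benjamini-Hochberg adjustment called 54 pairs (4.25%) from 40 SNPs. Of these, 28 were higher with the longer front and 26 lower. By pair of placements 17 of 419 were called between 50 and 100 bases in front (8 higher and 9 lower with the longer front), 23 of 410 between 50 and 150 and 14 of 443 between 100 and 150. No placement was favoured over all pairs, the median differences being 0.04, 0.11 and 0.04. Leaving out any input library ended all 54 calls, and a single RNA library gave 1096 without library 1 and 872 without library 3.

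Fragments of a SNP with neighbouring placements share more of their sequence than those with 50 and 150 bases in front. Without RNA counts of 0, activity with 50 and 100 bases in front correlated at r = 0.33 (323 alleles), with 100 and 150 at 0.22 (367 alleles), and with 50 and 150 at 0.06 (328 alleles), all of them described within the same libraries. The other allele of a called pair was measured for 39 of the 54, with the same sign in 36, and was itself called in 8. Over the 416 comparisons measured for both alleles, 62.7% had the same sign.

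PPP2R3A changed direction with placement. With 50 bases in front both alleles were below the input, allele 1 at -1.21 ± 0.10 from 12933, 10879 and 14111 input counts to 5355 and 4336 RNA counts (-1.15 and -1.29), and allele 2 at -1.31 ± 0.13 (-1.17 and -1.46). With 100 bases in front allele 1 stood at 1.89 ± 0.31 (2.28 and 1.37) and with 150 at 1.86 ± 0.17 (2.09 and 1.57), beside the values of allele 2 given above. All 6 values passed. The step from 50 to 100 bases was 3.04 ± 0.30 for allele 1 (3.42 and 2.65) and 4.18 ± 0.53 for allele 2 (3.42 and 4.94). From 50 to 150 bases it was 3.05 ± 0.17 (3.24 and 2.86) and 3.90 ± 0.25 (3.59 and 4.22), with adjusted p of 0.0125 to 0.0452 by edgeR with Benjamini-Hochberg adjustment. Between 100 and 150 bases neither allele passed, and the libraries had opposite signs, at -0.18 and 0.20 for allele 1 and 0.17 and -0.72 for allele 2.

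SNX19 showed the opposite order. Allele 1 at chromosome 11 position 130848735 was above the input with 100 bases in front, at 1.50 ± 0.17 (1.72 and 1.23) from 29903 and 18939 RNA counts, and below it with 150 bases in front. The difference was -5.80 ± 0.14, with -5.71 and -5.89 in the libraries (adjusted p = 0.00222 by edgeR with Benjamini-Hochberg adjustment). Another SNP 183 bases away gave the allele at 2.16 named above. Another SNP called in both directions lay nearest to NCAM2, a neural cell adhesion gene, with allele 1 at 0.91 ± 0.16 with 50 bases in front (0.72 and 1.08) and -1.87 ± 0.22 with 100 (-1.62 and -2.17).

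The largest called differences were in MANBA, where allele 1 with 150 bases in front was lower than with 50 by 8.44 log2 units (-8.44 ± 1.05, with -7.06 and -9.80 in the libraries), and with 100 bases lower than with 50 (-5.89 ± 0.28, with -6.24 and -5.55). In MAU2, allele 2 with 150 bases in front was lower than with 100 (-6.68 ± 0.55, with -6.16 and -7.16) and with 50 (-4.98 ± 0.15, with -4.95 and -4.99). Allele 1 with 150 bases in front was also lower than with 100 (-4.20 ± 0.49, with -3.49 and -4.91). The MAU2 allele 2 with 100 bases in front had only 108, 78 and 85 input counts. A called difference of -6.98 in TRANK1 is a library 1 result: allele 2 had RNA counts of 3360 and 0 with 100 bases in front and 4 and 0 with 150. With library 3 alone, where both fragments had 0 counts, its fitted difference was 2.41, with the sign turned and an adjusted p of 1 by edgeR with Benjamini-Hochberg adjustment. Another 2 called pairs, near ALMS1 and near PPARGC1A, likewise held 0 counts in library 3 and had opposite signs in the libraries.

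The differences called higher with a longer front were led by a fragment pair near PPARGC1A, a transcriptional coactivator gene, whose allele 2 had 114 and 7 RNA counts with 100 bases in front and 1226 and 391 with 150 (6.47 ± 0.85, with 5.35 and 7.55 in the libraries). The protocadherin allele with 150 bases exceeded that with 50 by 6.19 ± 0.20 (6.11 and 6.24) and that with 100 by 5.57 ± 0.33 (5.90 and 5.20). In PLCL1, allele 2 with 150 bases in front exceeded that with 100 by 4.86 ± 0.30, with 4.66 and 5.05 in the libraries. Nearest to DMRTA1, a gene of the DM-domain family, the step from 100 to 150 bases was called for allele 1 (4.04 ± 0.29, with 4.29 and 3.78) and allele 2 (2.21 ± 0.32, with 2.54 and 1.87). These steps pointed the same way in both libraries.

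Some SNPs were called in more than 1 placement. Alleles of 16 SNPs were called above in at least 2 placements and of 7 SNPs below in at least 2, and 3 SNPs were called in both directions, with PPP2R3A counted both among the 16 and among these 3. Placements that were not called could go the other way, as in MSRA at chromosome 8 position 10388815, where allele 1 was called above with 50 and 100 bases in front and allele 2 with 150 bases had library ratios of -1.78 and -4.13. The SNP nearest to EPO, the erythropoietin gene, at chromosome 7 position 100715476, was the only one above in all 3 placements, with allele 2 at 1.40 ± 0.11 with 50 bases in front (1.33 and 1.47) and 1.17 ± 0.13 with 100 (1.25 and 1.10), and allele 1 at 1.79 ± 0.28 with 150 (1.33 and 2.14). Its RNA counts for allele 2 were 10891 and 10676 against 4693, 4018 and 5129 in the input with 50 bases, and 25516 and 20636 against 10562, 9806 and 14297 with 100.

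The series was titled as a study of biased allelic activity, and allelic bias was tested in PC-12 as the RNA over input of allele 2 relative to allele 1. EdgeR with Benjamini-Hochberg adjustment called 0 of 635 fragments (0.0%), the smallest adjusted p being 0.590. At an unadjusted p under 0.05 there were 46, of which 20 favoured allele 2 and 26 allele 1. DESeq2 called 68 and limma-voom 0. Over the 510 fragments with no 0, the 95% interval of an allelic effect extended a median of 1.24 log2 units to each side, from the t distribution of the fit.

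The libraries gave little common order to the allelic effects. Over the 510 fragments, 282 (55.3%) had the same sign in both libraries, and the effects correlated at r = 0.17 across fragments. The median size was 0.60 log2 units. In both libraries allele 2 was over 2-fold more active in 11 fragments and allele 1 in 10, and 12 fragments were over 2-fold in opposite directions.

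Fragments with the same sign in both libraries and no RNA count of 0 were ranked by unadjusted p. The first 8 had p of 0.0118 to 0.0182 (edgeR, adjusted p = 0.590 for each with Benjamini-Hochberg adjustment). Nearest to RCBTB1, with 150 bases in front, allele 1 had 9429 and 4436 RNA counts against 3469, 3196 and 3932 in the input, and allele 2 had 3524 and 1899 against 2619, 2334 and 2908, for an effect of -0.89 ± 0.20 (-0.99 and -0.79). In MSRA, which encodes a methionine sulfoxide reductase, the effect with 50 bases in front was 0.48 ± 0.11, with 0.44 and 0.52 in the libraries. In FURIN with 50 bases in front it was -0.41 ± 0.10, with -0.36 and -0.46. Both alleles of these MSRA and FURIN fragments were themselves called above the input, and the difference between the alleles did not pass.

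The effects of larger size had alleles of unequal input. In MAU2 with 100 bases in front it was 2.48 ± 0.60, with 1.61 and 3.32 in the libraries, allele 2 having 108, 78 and 85 input counts and allele 1 having 16326, 13776 and 17007. Nearest to TBL1XR1, a gene of a corepressor subunit, the effect was 1.95 ± 0.51 (1.25 and 2.64), and in OTUD7B, a deubiquitinase gene, it was -1.58 ± 0.41 (-1.34 and -1.81). In each of these 3 fragments one allele had at most 231 counts in an input library. In PPP1R21 the effect was 1.55 ± 0.40 with 150 bases in front, with 1.31 and 1.79 in the libraries.

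In the other placements of these SNPs no allelic effect passed. The FURIN effect was 0.13 ± 0.20 with 150 bases in front (0.17 and 0.09), against -0.41 with 50. In OTUD7B the libraries had opposite signs, at 0.30 and -0.15 with 100 bases in front and -0.35 and 0.65 with 50. For MSRA the effect was -2.93 ± 1.39 with 150 bases, where the libraries gave -1.03 and -4.84. The differences between placements in the allelic effect were not tested.

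Whether an allele was more or less abundant in PC-12 RNA than in the other lines was tested over 1436 alleles present in all 4 tables, PC-12 against the mean of the other lines. EdgeR with Benjamini-Hochberg adjustment called 0 (0.0%), with 42 at an unadjusted p under 0.05, while DESeq2 called 15 and limma-voom 0. Both PC-12 libraries lay outside the range of the other 9 libraries for 53 alleles (3.69%), 40 above and 13 below. With the replicate number as a block edgeR called 1. Same-numbered libraries of different lines deviated together, but PC-12 library 3 deviated with the number 2 libraries of the other lines (r = 0.30 to 0.54) as well as with number 3 (0.37 to 0.53), so this is not a match of single numbers. Without PC-12 library 1 it called 10, all lower in PC-12, and without library 3 it called 0.

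The allele called with the block was allele 1 nearest to SNX19 at chromosome 11 position 130848918, with 150 bases in front, at 1.35 ± 0.15 (SE, adjusted p = 0.0486 by edgeR with Benjamini-Hochberg adjustment). Its level was 12.04 and 12.58 on the log2 CPM scale, where CPM is counts scaled to the library size, in PC-12, against 10.62 to 11.75 in the other lines. Without the block the difference was 1.16 ± 0.30 with an adjusted p of 0.499. Compared with same-numbered libraries only, the difference was 1.31 in number 1 and 1.40 in number 3. Their positive sign follows from both PC-12 libraries lying above every library of the other lines.

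The 5 alleles with the smallest p without the block were higher in PC-12 than in every library of the other lines, at adjusted p of 0.293 to 0.337 by edgeR with Benjamini-Hochberg adjustment. Allele 2 in YWHAB, a 14-3-3 protein gene, with 50 bases in front, had levels of 11.71 and 11.88 in PC-12 against 10.22 to 10.80 elsewhere, a difference of 1.18 ± 0.21. Nearest to EPO, allele 2 was higher by 1.06 ± 0.20 with 100 bases in front and by 1.26 ± 0.26 with 50. In LETM2, allele 2 with 100 bases in front had levels of 10.75 and 10.44 against 6.83 to 9.19, a difference of 2.01 ± 0.43. Allele 1 at SNX19 position 130848735 with 100 bases in front had 11.87 and 11.42 against 8.80 to 10.61, a difference of 1.64 ± 0.36. Within the same number the differences were 0.91 to 2.22 for these 5. Their positive sign follows from both PC-12 libraries lying above every other library, so it is no separate check. All 5 alleles were also called above the input in PC-12. Of the 168 alleles called against the input, 162 entered this test and 23 of them had an unadjusted p under 0.05. Both tests use the same PC-12 RNA counts, so this overlap is not independent.

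The allelic ratio in PC-12 RNA was also set against the mean ratio of the other lines in 514 fragments with both alleles in all tables. EdgeR with Benjamini-Hochberg adjustment called 0 (0.0%), with 1 at an unadjusted p under 0.05, and DESeq2 called 0 with 33. Without PC-12 library 1 edgeR called 4, and without library 3 it called 0. The median SE of this comparison was 1.52 log2 units, so only differences of several units could have passed.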

How the data were processed

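The deposited PC-12 table gives raw read counts, all whole numbers, with 1 column for each allele and library per the file headers. Per the labels' protocols, the input was amplified by PCR from the plasmid pool and polyadenylated RNA was reverse-transcribed and amplified. The submitters' processing notes name limma 3.40.6. Aligner, counter and genome build were not given in the sources used here. An allele absent from the table (344 of them) is 0 in all its columns, and no allele present is 0 in both RNA libraries.

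Counts were analysed in R 4.3.3 with edgeR 4.0.16 (TMM scaling, quasi-likelihood F test, two-sided, Benjamini-Hochberg over all features tested, adjusted p of 0.05, mean count of at least 10). The SE is the estimate divided by the root of its F value. In tests against the input it rests on a spread pooled over RNA and input libraries, and the RNA pair differed more than the input pairs. Allelic and placement effects are interactions with RNA, with library as a factor. The scripts were tested on simulated data. Alternatives were DESeq2 1.42.0 (size factors and Wald test), limma-voom (limma 3.58.1), other count minimums, other thresholds, alleles with a 0 left out, a replicate block and leaving out each library. In RNA levels, all 6 pairs of a PC-12 library with the same-numbered library of another line deviated together (r = 0.37 to 0.68), although with 2 PC-12 libraries the deviations of one mirror those of the other and library 3 also deviated with the number 2 libraries (0.30 to 0.54). RNA and input libraries of the same number did not (r of 0.00 to 0.02).

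Named alleles were the 12 highest and 12 lowest called, the 8 fragments with the smallest allelic p, the 6 largest called placement differences in each direction, the 5 smallest p against other lines and called members of gene lists, where not stated otherwise; further placements of these SNPs, the FURIN, NCAM2 and EPO alleles and the single pairs of DMRTA1, MAU2 and PPP2R3A were added after their values were seen. The 12 highest, the 12 lowest and the 8 fragments were named only if both RNA libraries had the same sign. The members, tests and lists were chosen with earlier results of these data known. Some of the named alleles and list members are left out of the text.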

Additional observations from a re-analysis of the deposited data

How the results depend on the processing

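The calls in PC-12 depend on the tool and on single libraries. Against 168 activity calls, DESeq2's test called 643 alleles, and edgeR called 38 at a threshold of 0.01 and 323 at 0.1. The replicate number as a block left 0 activity calls and 0 placement calls, with no pairing of RNA and input in the data, and changed no other call except the 1 against other lines. Leaving out a library gave 0 to 1454 activity calls, 0 to 566 allelic calls, 0 to 1096 placement calls, 0 to 10 calls against other lines and 0 to 4 allelic calls against other lines. DESeq2 called 68 allelic effects, 442 placement differences (54 by edgeR) and 15 alleles against other lines. Placement calls were 82 by limma-voom and 94 without alleles at 0, and a 4-fold limit left 16 alleles above and 58 below in both libraries, from 83 and 135. The TRANK1 difference was 2.41 without PC-12 library 1 and -7.26 without library 3, against -6.98. Limma-voom gave 221 activity calls, leaving out alleles at 0 gave 239, and DESeq2 size factors gave 182; 160, 168 and 165 of these were among the 168. Besides the TRANK1 difference, none of the 50 activity, 10 allelic, 17 placement and 6 line values fitted and named changed sign under the alternatives run. Alleles and differences whose libraries had opposite signs are given in the text by library only, and leaving out a library turns their sign. Apart from TRANK1, the fitted values named thus had the same sign in both PC-12 libraries by choice. Their unchanged sign without an RNA library is no separate check. The causes were not tested, except that single RNA libraries take their spread from the input.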
